A study of Drosophila melanogaster with 13 samples.

Results

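The genes described here are the 5 testis-specific TAF genes of Drosophila melanogaster, namely can (cannonball), sa (spermatocyte arrest), mia (meiosis I arrest), nht (no hitter) and Taf12L, which is also called rye. They were chosen by gene symbol among 11982 genes that have a probe set of their own on the Affymetrix Drosophila 2 expression array. Taf12L has 2 probe sets and the other genes 1 each. Each gene is represented by its brightest probe set, judged by the mean of the 13 arrays. Each array measured RNA from whole testes of males 0 to 1 day old that were raised at 25 °C, after the seminal vesicles and accessory glands had been cut away.

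There were 5 genotypes. The aly[2]/aly[5p] males (3 arrays) carry mutations of always early, a component of the testis meiotic arrest complex tMAC. The sa[1]/sa[2] males (3 arrays) are mutant for sa, 1 of the 5 testis TAF genes themselves. Mutations of magellan (magn), the polyubiquitin gene Ubi-p63E, were present in 2 allele combinations, magn[12c]/magn[23b] (2 arrays) and magn[12c]/magn[12c];pSC2 (2 arrays), and the labels do not say what pSC2 is. The WT group (3 arrays) is written red[1], e[1] in the characteristics and red[1]/e[1] in the titles, and the labels do not say whether the mutants carry these alleles too. The arrays of a genotype are described as biological replicates, with nothing on separate crosses, so the p-values measure the spread between these arrays. In whole testes, a larger share of cells of a type and more RNA per cell cannot be told apart.

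TAFs are TBP-associated factors, the subunits that together with the TATA-binding protein form TFIID, the complex that recognises core promoters and recruits RNA polymerase II. Drosophila spermatocytes use a second, testis-specific set of TAFs that are paralogs of general subunits. Males that lack a testis TAF arrest as mature primary spermatocytes and do not turn on many genes needed to build sperm, and tMAC acts in the same programme. The can protein is the paralog of TAF5, mia of TAF6, sa of TAF8, nht of TAF4 and Taf12L of TAF12. In general TFIID, TAF4 and TAF12 pair with each other through histone folds. The genes lie on 3 chromosome arms: can and sa on 3L, mia on 3R, and nht and Taf12L on 2L. In the gene table used here sa lies inside the span of rgn and Taf12L inside that of dcma.

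Values are log2 expression, where 1 unit is a 2-fold difference and the floor of the data is 2.10. The word called is used of a change of at least 2-fold with an adjusted p under 0.05 (limma, with Benjamini-Hochberg adjustment over the 8719 genes tested). All 5 testis TAF genes passed the filter on dim probe sets. The arrays held the transcripts of male germ cells, with bam, zpg, nanos and aub of early germ cells and Rbp4, blanks and kmg of spermatocytes above a log2 value of 5 in the mean of every genotype. The probe set of vas, a general germline gene, was at background everywhere, with group means of 2.14 to 2.25. Accessory gland and duct transcripts were also present, and the log2 of the summed level of 12 such genes spanned 13.10 to 13.61 in aly, 13.98 to 15.20 in sa, 13.59 to 13.74 in magn[12c]/magn[23b], 16.48 to 16.52 in magn[12c]/magn[12c];pSC2 and 14.11 to 17.16 in WT. The 3′ minus 5′ signal of the GAPDH control was 1.22 to 1.52 in aly, 1.48 to 2.15 in sa, 1.12 to 1.5 in magn[12c]/magn[23b], 1.46 to 1.97 in magn[12c]/magn[12c];pSC2 and 1.08 to 1.29 in WT. On the actin control the same signal was 0.85 to 0.97 in aly, 1.06 to 2.24 in sa and 0.94 to 1.04 in WT. It was 0.54 to 0.72 in magn[12c]/magn[23b] and 0.96 to 1.82 in magn[12c]/magn[12c];pSC2. On the eif control it was 2.55 to 2.71 in aly, 2.72 to 3.75 in sa and 2.27 to 2.79 in WT. There magn[12c]/magn[23b] gave 1.73 to 1.94 and magn[12c]/magn[12c];pSC2 gave 1.99 to 2.62. Markers of other somatic tissues also differed between genotypes. The summed level of 3 fat body genes, as log2, was 7.27 to 8.53 in aly, 8.78 to 9.64 in sa, 11.42 to 11.73 in magn[12c]/magn[23b], 10.67 to 11.08 in magn[12c]/magn[12c];pSC2 and 11.56 to 12.32 in WT, and all 3 genes fell in aly and sa and 2 in each magn combination. Of 6 hemocyte genes 4 were tested, and He and eater were at or below 4 in every array. The summed hemocyte level was 7.88 to 8.45 in aly, 8.50 to 8.63 in sa, 9.07 to 9.08 in magn[12c]/magn[23b], 9.16 to 9.40 in magn[12c]/magn[12c];pSC2 and 7.85 to 8.27 in WT. For 6 muscle genes it was 10.41 to 11.13 in aly, 10.73 to 11.48 in sa, 11.62 to 12.36 in magn[12c]/magn[23b], 11.92 to 12.27 in magn[12c]/magn[12c];pSC2 and 11.02 to 12.02 in WT. For 6 cyst cell and hub genes it was 8.85 to 9.46 in aly, 9.50 to 9.70 in sa, 9.76 to 10.22 in magn[12c]/magn[23b], 9.61 to 9.64 in magn[12c]/magn[12c];pSC2 and 8.72 to 9.84 in WT, with tj, zfh1 and upd1 at or below 4 in every array. The part of these differences in the results below was not tested.

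As deposited, transcripts of mia, nht and Taf12L were higher than in WT in all the mutants, and sa was higher in all mutants but its own. Once ribosomal protein genes were set level, Taf12L in aly was at -0.13. Then mia was 0.19 in sa, 0.22 in magn[12c]/magn[23b] and 0.02 in magn[12c]/magn[12c];pSC2, and sa was 0.11 in magn[12c]/magn[12c];pSC2. None of these differed from WT beyond its spread (adjusted p of 0.442 to 0.945, limma). On the values as deposited all 5 genes rose in aly testes, where 45.6% of all tested genes were called higher. In sa testes 3 rose (mia, nht and Taf12L), against 40.9% of all tested genes, and 1 fell, sa itself, against 21.6%. In each magn combination 4 of the 5 rose, all but can, where 25.5% of all tested genes rose in magn[12c]/magn[23b] and 32.2% in magn[12c]/magn[12c];pSC2. All arrays of a testis TAF gene lay above the WT arrays for 5 of 5 genes in aly (54.9% of all tested genes), 4 in sa (51.9%), 4 in magn[12c]/magn[23b] (45.7%) and 5 in magn[12c]/magn[12c];pSC2 (50.8%), and below them for sa in sa testes (25.7%). So large a part of the transcriptome moved that a called gene is common in these comparisons. The median change of all tested genes was itself above 0, at 0.77 in aly, 0.66 in sa, 0.33 in magn[12c]/magn[23b] and 0.46 in magn[12c]/magn[12c];pSC2. The testis TAF median was 2.74 in aly, 1.62 in sa, 1.35 in magn[12c]/magn[23b] and 1.25 in magn[12c]/magn[12c];pSC2. These 4 comparisons share the WT arrays.

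**Figure D1:**
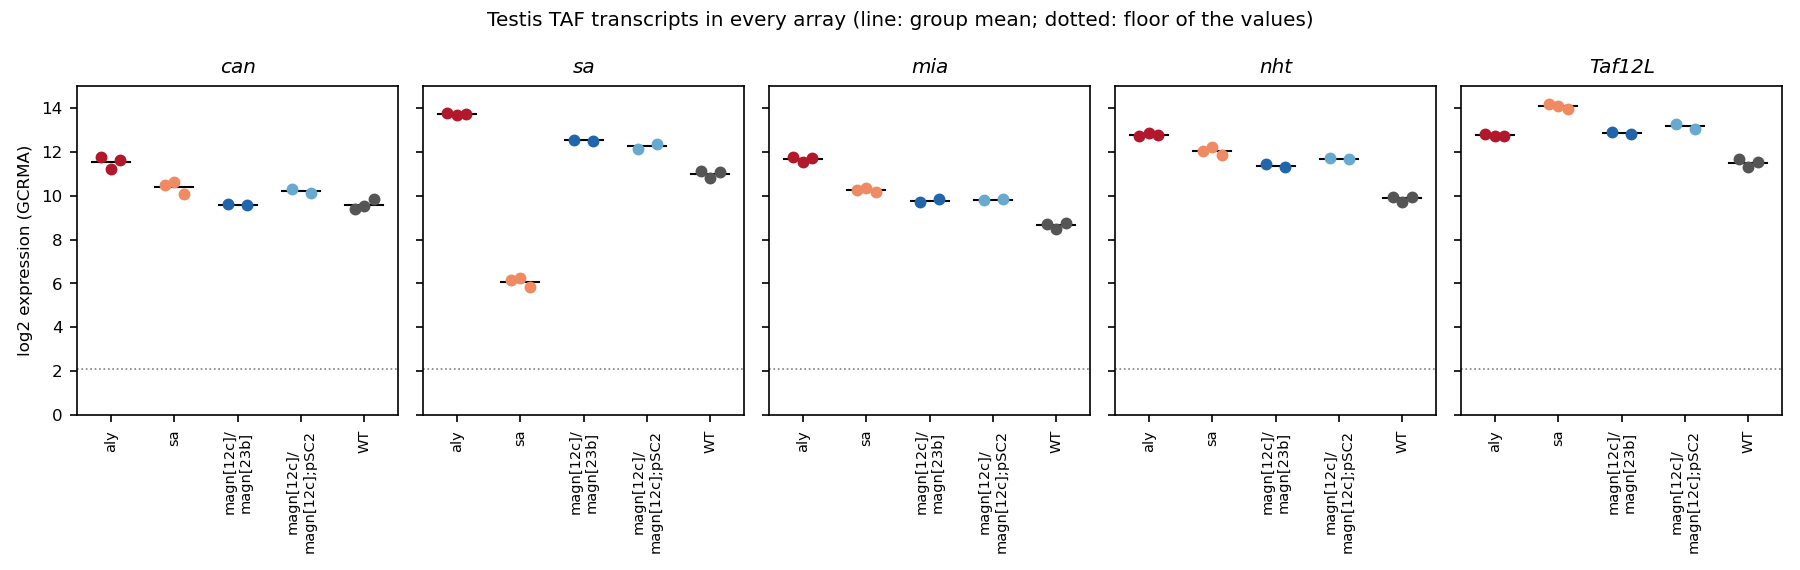
Log2 expression (vertical axis) of the 5 testis TAF genes in each of the 13 arrays, by genotype, with a point per array, a line at each group mean and a dotted line at the floor of the data. Only sa in sa testes has a group mean below WT, with arrays between 5.84 and 6.25, while Taf12L is highest in sa testes and the other genes are highest in aly testes.

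The sa gene is the mutated gene of 1 genotype and checks its label. It read 6.15, 6.25 and 5.84 in the 3 sa arrays, against 11.13, 10.80 and 11.07 in WT, so the groups were far apart. The change was -4.92 (SE 0.14, adjusted p = 2.13e-10, limma, n = 3 and 3), a level 30.3-fold lower than in WT, and 97.7% of all tested genes had a higher value of the change. The remaining signal was above the floor in all 3 arrays. The host gene rgn read 5.12 to 7.60 in the sa arrays, 4.61 to 5.45 in aly, 8.29 to 9.12 in the magn arrays of both combinations and 5.98 to 8.18 in WT, so that 2 of the 3 sa arrays lay inside its WT range.

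In the other mutants sa, the TAF8 paralog, was above WT in every array. It read 13.79, 13.69 and 13.74 in aly, 12.56 and 12.49 in magn[12c]/magn[23b], and 12.15 and 12.36 in magn[12c]/magn[12c];pSC2. None of these arrays overlapped WT. The change against WT was 2.74 (SE 0.14, adjusted p = 3.77e-10) in aly, 1.52 (SE 0.15, adjusted p = 4.49e-06) in magn[12c]/magn[23b] and 1.25 (SE 0.15, adjusted p = 1.16e-05) in magn[12c]/magn[12c];pSC2 (limma). The order of levels was aly, magn[12c]/magn[23b], magn[12c]/magn[12c];pSC2, WT and sa, and neighbours in it differed beyond their spread except the 2 magn combinations, which differed by 0.27 (95% confidence interval -0.10 to 0.64, adjusted p = 0.314, limma).

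The mia gene encodes the TAF6 paralog. It read 11.77, 11.54 and 11.71 in aly, 10.26, 10.37 and 10.19 in sa, 9.70 and 9.83 in magn[12c]/magn[23b], 9.79 and 9.85 in magn[12c]/magn[12c];pSC2, and 8.71, 8.48 and 8.77 in WT. Every mutant array was above every WT array, and every aly array above all others. With an 8.12-fold difference, the change of mia in aly was the highest of the 5 genes, at 3.02 (SE 0.13, adjusted p = 9.99e-11, limma). A higher value of the change, counted with its sign, was found for 12.1% of all tested genes. It was 1.62 (adjusted p = 1.29e-07) in sa, 1.11 (4.55e-05) in magn[12c]/magn[23b] and 1.17 (1.73e-05) in magn[12c]/magn[12c];pSC2. The levels ordered as aly, sa, magn[12c]/magn[12c];pSC2, magn[12c]/magn[23b] and WT. Between magn[12c]/magn[12c];pSC2 and sa the difference was -0.45 (adjusted p = 0.023, limma), under the 2-fold minimum, and the 2 magn combinations differed by -0.06 (95% confidence interval -0.41 to 0.30, adjusted p = 0.869, limma).

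The nht gene encodes the TAF4 paralog, and it had the same order of genotypes as mia. Its arrays read 12.72, 12.88 and 12.75 in aly, 12.04, 12.23 and 11.85 in sa, 11.45 and 11.30 in magn[12c]/magn[23b], 11.71 and 11.67 in magn[12c]/magn[12c];pSC2, and 9.96, 9.73 and 9.96 in WT. The mutant arrays all lay above the WT arrays. The change was 2.89 (SE 0.12, adjusted p = 5.55e-11) in aly, 2.15 (SE 0.12, adjusted p = 4.19e-09) in sa, 1.48 (SE 0.14, adjusted p = 1.91e-06) in magn[12c]/magn[23b] and 1.81 (SE 0.14, adjusted p = 1.61e-07) in magn[12c]/magn[12c];pSC2 (limma). Between 13.2% and 14.4% of all tested genes had a higher value of the change than nht, counted with its sign, in each of the 4 comparisons. Neighbours among the mutants were close: aly exceeded sa by 0.74 (adjusted p = 0.000155), under the 2-fold minimum, magn[12c]/magn[12c];pSC2 minus sa was -0.35 (adjusted p = 0.0459), and the magn combinations differed by -0.32 (95% confidence interval -0.64 to 0.003, adjusted p = 0.17, limma).

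Taf12L, the TAF12 paralog, was the gene with its highest level in sa testes rather than in aly. It read 14.16, 14.09 and 13.95 in sa, 13.28 and 13.06 in magn[12c]/magn[12c];pSC2, 12.89 and 12.82 in magn[12c]/magn[23b], 12.80, 12.72 and 12.73 in aly, and 11.68, 11.29 and 11.54 in WT. No mutant array overlapped WT, and no sa array overlapped any other group. The change was 2.56 (SE 0.11, adjusted p = 8.57e-10) in sa, but 1.24 (SE 0.11, adjusted p = 1.75e-07) in aly (limma). A higher value of the change, counted with its sign, was found for 8.36% of all tested genes in sa and 40.9% in aly. In magn it was 1.35 (adjusted p = 2.11e-06) for magn[12c]/magn[23b] and 1.66 (adjusted p = 1.61e-07) for magn[12c]/magn[12c];pSC2. The magn combinations differed by -0.31 (adjusted p = 0.147, limma). The magn[12c]/magn[23b] and aly levels did not differ beyond their spread, with a change of 0.11 for magn minus aly (95% confidence interval -0.17 to 0.38, adjusted p = 0.46, limma). The other probe set named for Taf12L was at background in every array, between 2.10 and 2.36, and gave no information on it. The 2 probe sets of the host gene dcma were also at background, at 3.09 or below.

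The can gene, the TAF5 paralog, changed least of the 5 in sa and in both magn combinations. It read 11.76, 11.23 and 11.65 in aly, 10.48, 10.62 and 10.07 in sa, 9.63 and 9.56 in magn[12c]/magn[23b], 10.32 and 10.10 in magn[12c]/magn[12c];pSC2, and 9.40, 9.51 and 9.85 in WT. The aly arrays stood above all others, while the magn[12c]/magn[23b] arrays fell inside the WT range. Only the aly change was called, at 1.96 (SE 0.19, adjusted p = 3.49e-07, limma). It was 0.80 (adjusted p = 0.00159, 1.75-fold) in sa, 0.63 (adjusted p = 0.0188, 1.54-fold) in magn[12c]/magn[12c];pSC2, and 0.01 (95% confidence interval -0.45 to 0.47, adjusted p = 0.979) in magn[12c]/magn[23b], and all 3 were below 0 once ribosomal protein genes were set level. The levels ordered as aly, sa, magn[12c]/magn[12c];pSC2, magn[12c]/magn[23b] and WT, and magn[12c]/magn[12c];pSC2 and sa did not differ beyond their spread (-0.18, adjusted p = 0.503, limma). The change of can lay 0.15 above the median change of all tested genes in sa and 0.17 above it in magn[12c]/magn[12c];pSC2. The magn combinations differed by -0.62 for can, the widest gap among the 5 genes (adjusted p = 0.0873, limma), and no testis TAF gene was called between them, where 7.94% of all tested genes were called higher and 2.14% lower.

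Set directly against each other, aly and sa testes differed at all 5 genes. In aly, sa (7.66, adjusted p = 6.93e-14), mia (1.403, adjusted p = 9.22e-07) and can (1.16, adjusted p = 0.000145) were called higher than in sa testes, a call that 18.8% of all tested genes received, and nht was 0.74 higher. Taf12L alone of the 5 was called lower in aly than in sa, at -1.32 (SE 0.11, adjusted p = 2.7e-07, limma), where 21.2% of all tested genes were called lower. The call of can was lost without sa replicate 3, where the difference was 0.9963. Against aly, 4 of the 5 genes were called lower in both magn combinations, with changes of -1.95 to -1.22 in magn[12c]/magn[23b], where 35.7% of all tested genes were called lower, and of -1.85 to -1.09 in magn[12c]/magn[12c];pSC2, where 30.7% were. Once ribosomal protein genes were set level, 2 stayed called lower in magn[12c]/magn[23b] (25.2% of all tested genes), with sa at -0.74 and nht at -0.93 no longer called, and 3 in magn[12c]/magn[12c];pSC2 (25.3%), with nht at -0.86. Quantile normalization put nht at -0.98 in magn[12c]/magn[12c];pSC2. Taf12L was not called in either. Against sa testes it was called lower in magn[12c]/magn[23b] (-1.21, adjusted p = 3.18e-06, limma) and not in magn[12c]/magn[12c];pSC2 (-0.90, adjusted p = 6.8e-05, limma), and the difference passed 2-fold there without magn[12c]/magn[12c];pSC2 replicate 1 (-1.01), by quantile normalization (-1.01) and with the 4 magn arrays as 1 group (-1.06). The call in magn[12c]/magn[23b] was lost once ribosomal protein genes were set level (-0.68) and with the mean of both Taf12L probe sets (-0.61).

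The balance of the 5 transcripts within an array was examined next, since a shift common to a whole array cancels there. These comparisons were chosen after the values had been seen. Taf12L minus the mean of can, mia and nht, relative to the WT mean, lay between -1.43 and -1.29 in aly testes and between 0.88 and 1.12 in sa testes, against -0.12 to 0.20 in WT. It was 0.46 to 0.51 in magn[12c]/magn[23b] and 0.38 to 0.54 in magn[12c]/magn[12c];pSC2 (exact permutation p = 0.2 each against WT). The exact permutation test between aly and sa gave p = 0.1, the smallest value that 3 against 3 arrays allow. Relative to mia and nht, can was lower in all 4 mutants, with group means of -0.997 in aly, -1.08 in sa, -1.29 in magn[12c]/magn[23b] and -0.86 in magn[12c]/magn[12c];pSC2, and with no mutant array inside the WT range of -0.26 to 0.17 (exact permutation p = 0.1 each, the smallest possible). Relative to can and mia, nht was 0.91 to 0.94 higher in the means of sa and both magn combinations and 0.40 higher in aly. That reference holds can, which was itself low in the mutants. The change of nht was 2.89 against 3.02 for mia in aly, and 2.15 against 1.62 in sa. In magn it was 1.48 against 1.11 in magn[12c]/magn[23b] and 1.81 against 1.17 in magn[12c]/magn[12c];pSC2. So nht gained on mia in sa and magn but not in aly.

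**Figure D2:**
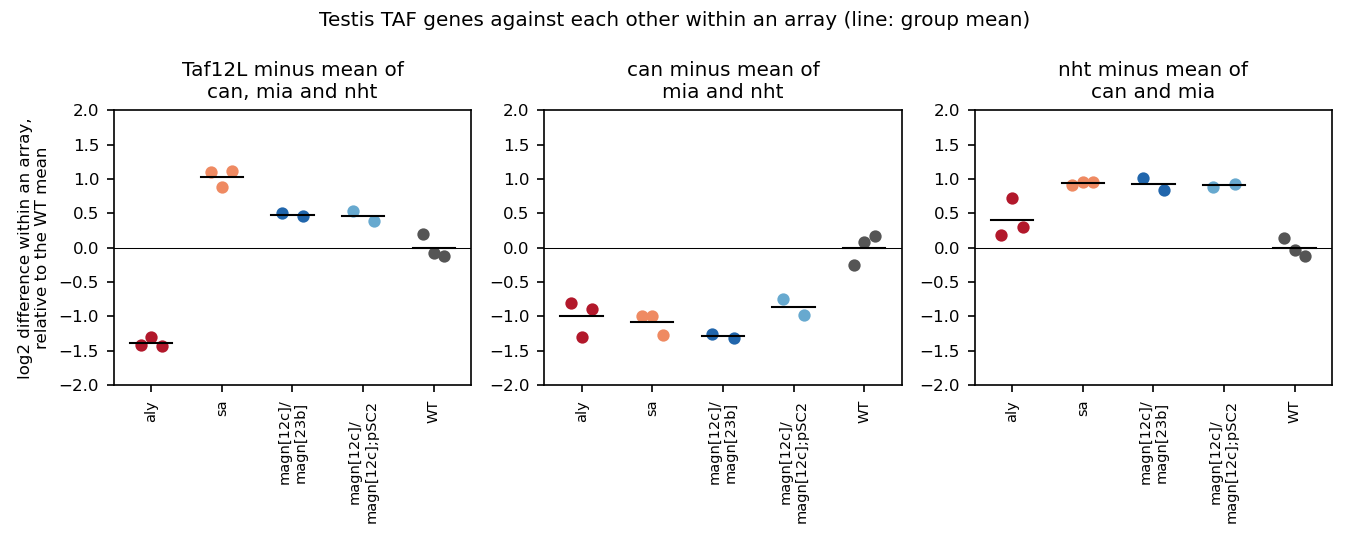
Differences between testis TAF genes within an array on the log2 scale (vertical axis), set to 0 at the WT mean, with a point per array, a line at each group mean and genotypes from left to right. Taf12L lies below the other genes in aly (-1.38) and above them in sa (1.04), and can lies below mia and nht in all 4 mutants.

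Each testis TAF was then compared with its general counterpart. The general subunits changed as well, and by very different amounts. Taf5 read 9.29, 9.54 and 9.48 in aly, 8.51, 8.73 and 9.48 in sa, 4.79 and 5.30 in magn[12c]/magn[23b], 5.44 and 5.70 in magn[12c]/magn[12c];pSC2, and 4.87, 3.72 and 3.03 in WT, so it was near background in WT. Its change of 5.56 (SE 0.40, adjusted p = 1.78e-08, limma) in aly and 5.03 (SE 0.40, adjusted p = 8.93e-08, limma) in sa was higher than for any testis TAF. A higher value of the change, counted with its sign, was found for 0.585% of all tested genes in aly and 0.161% in sa. Of the 3 WT arrays, 2 lay below the log2 value of 4 used to filter dim probe sets. The general TAF6 gene Taf6 followed it, with 4.12 in aly, 3.88 in sa, 2.12 in magn[12c]/magn[23b] and 2.75 in magn[12c]/magn[12c];pSC2, called in each. Taf12 rose in aly (2.16) and sa (1.90), calls that were lost once ribosomal protein genes were set level (0.78 in aly and 0.47 in sa), and not in magn (0.33 in each combination). On the values as deposited, Taf4 (1.19) and Taf8 (1.14) were called in aly and in no other mutant. With ribosomal protein genes set level they were -0.19 and -0.23 in aly, Taf4 was called lower in sa (-1.09) and magn[12c]/magn[23b] (-1.02), and Taf8 was called lower in magn[12c]/magn[23b] (-1.11) and magn[12c]/magn[12c];pSC2 (-1.38). With the mean of its 2 probe sets, Taf4 was called higher in magn[12c]/magn[12c];pSC2 (1.34, adjusted p = 0.00125, limma). Without WT replicate 3 the Taf8 change in sa was called as well (1.09).

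The change of a testis TAF minus the change of its counterpart is not altered by centring of arrays. With the brightest probe sets it was positive for nht minus Taf4 in every mutant, at 1.71 in aly, 1.82 in sa, 1.61 in magn[12c]/magn[23b] and 1.38 in magn[12c]/magn[12c];pSC2. For sa minus Taf8 it was 1.60 in aly, 1.73 in magn[12c]/magn[23b] and 1.49 in magn[12c]/magn[12c];pSC2. On these probe sets the testis genes of the TAF4 and TAF8 pairs gained on the general ones. The opposite held for mia minus Taf6 (-1.10 in aly, -2.26 in sa, -1.004 in magn[12c]/magn[23b] and -1.58 in magn[12c]/magn[12c];pSC2) and for can minus Taf5 in aly (-3.60) and sa (-4.23), where the general gene gained more. Taf12L minus Taf12 was -0.91 in aly but 0.67 in sa, 1.02 in magn[12c]/magn[23b] and 1.33 in magn[12c]/magn[12c];pSC2, and after quantile normalization it was -0.56 in aly and 1.21 in sa. Taf4 has a second probe set that disagrees with the first, and with the mean of both the difference of nht and Taf4 was 0.66 in magn[12c]/magn[23b] and 0.47 in magn[12c]/magn[12c];pSC2. The second alone read 6.31 and 5.85 in magn[12c]/magn[23b], 6.32 and 6.79 in magn[12c]/magn[12c];pSC2, and 3.92, 5.19 and 3.82 in WT. By that probe set Taf4 gained more than nht in both magn combinations, so the direction there depends on the probe set. In 17 of 19 combinations of gene pair and genotype, sa in sa testes left out, the arrays of mutant and WT did not overlap. The exceptions were can minus Taf5 in both magn combinations. Such separation was common, since 45.7% to 54.9% of all tested single genes lay wholly above WT in the 4 mutants. Those shares leave out genes wholly below WT, 25.7% in sa testes, whereas the count of 17 took either direction. The share among all possible gene pairs was not computed, so the count was not set against one. Each exact permutation p was 0.1 or more (adjusted p of at least 0.118 over the 20 tests), and 0.1 is the smallest value these group sizes allow.

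**Figure D3:**
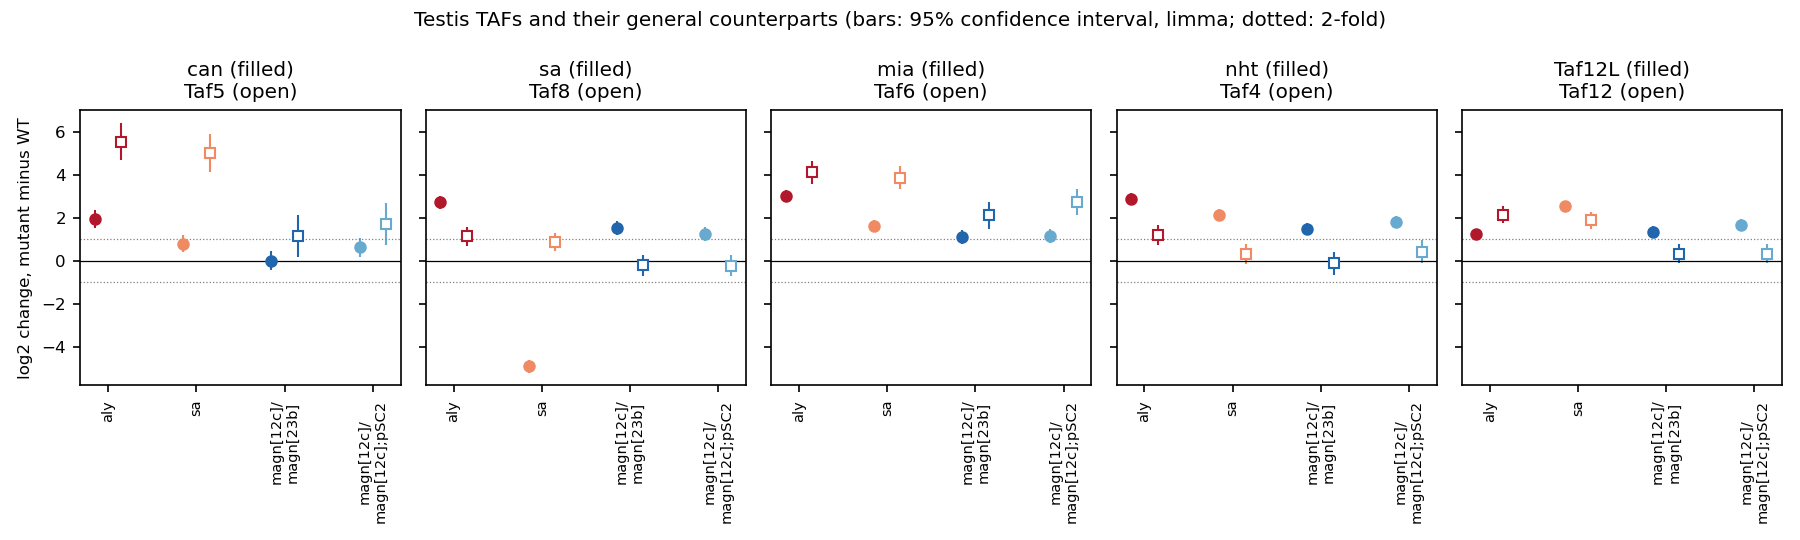
Log2 change against WT (vertical axis) of each testis TAF gene (filled circles) and its general counterpart (open squares) in the 4 mutant genotypes, with 95% confidence intervals from limma and dotted lines at 2-fold. The general gene lies above the testis gene for the TAF5 and TAF6 pairs. With the brightest probe set of Taf4, the testis gene lies above the general one for nht and Taf4 in all 4 mutants.

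How far the testis TAF genes rose depends on what is held constant between arrays. Ribosomal protein genes were themselves higher in the mutants, with median changes of 1.43 in aly, 1.42 in sa, 0.91 in magn[12c]/magn[23b] and 1.12 in magn[12c]/magn[12c];pSC2 over 30 genes. Once they were set level across arrays, the genes called higher were 20.6% of all tested genes in aly, 10.2% in sa, 7.66% in magn[12c]/magn[23b] and 7.86% in magn[12c]/magn[12c];pSC2, and those called lower were 42.6% in aly, 44.2% in sa, 32.9% in magn[12c]/magn[23b] and 39.4% in magn[12c]/magn[12c];pSC2. Of the testis TAF genes, mia (1.64), nht (1.52) and sa (1.36) stayed called higher in aly, can (0.58, adjusted p = 0.0531) and Taf12L (-0.13, adjusted p = 0.477) did not, and Taf12L (1.14, adjusted p = 1.55e-05, limma) alone stayed called higher in sa. After this centring no testis TAF gene was called in the magn combinations, where the 4 genes other than can ranged from 0.02 to 0.66. The can gene was then below WT in sa (-0.62), magn[12c]/magn[23b] (-0.89) and magn[12c]/magn[12c];pSC2 (-0.52). The differences between aly and sa hardly depended on the scaling, at -1.27 for Taf12L, 1.45 for mia and 1.204 for can after the same centring.

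**Figure D4:**
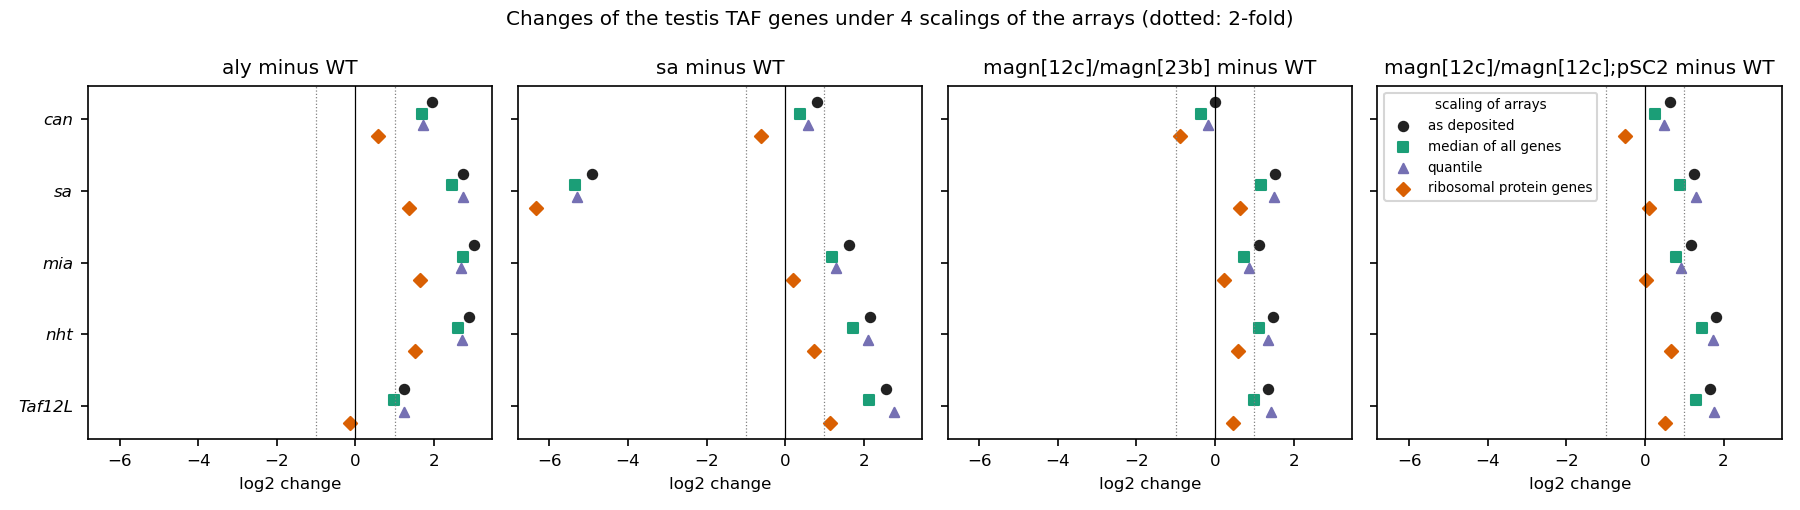
Log2 change against WT (horizontal axis) of the 5 testis TAF genes in the 4 mutant genotypes under 4 scalings of the arrays, with dotted lines at 2-fold. Centring on ribosomal protein genes moves every gene to the left, to -0.13 for Taf12L in aly and to between -0.89 and -0.52 for can in the other 3 mutants.

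Other genes of the same machinery were read from lists. Of 17 general TFIID and TBP family genes 15 had a probe set of their own and were tested. Of these, 11 rose in aly, 8 in sa and 7 in each magn combination. Of all tested genes, 45.6% were called higher in aly, 40.9% in sa, 25.5% in magn[12c]/magn[23b] and 32.2% in magn[12c]/magn[12c];pSC2. None of the 15 was called lower, a call that 12.4% to 24.8% of all tested genes received. Median changes were 2.10 in aly, 1.32 in sa, 0.37 in magn[12c]/magn[23b] and 0.49 in magn[12c]/magn[12c];pSC2. Centring on ribosomal protein genes left the general TFIID median above 0 in aly (0.73) and turned it below 0 in sa (-0.10), magn[12c]/magn[23b] (-0.53) and magn[12c]/magn[12c];pSC2 (-0.66). Then 6 genes were called higher and 4 lower in aly, 3 and 2 in sa, 1 and 3 in magn[12c]/magn[23b], and 2 and 3 in magn[12c]/magn[12c];pSC2. Of all tested genes, 20.6% were then called higher and 42.6% lower in aly, and 10.2% and 44.2% in sa. The shares were 7.66% and 32.9% in magn[12c]/magn[23b] and 7.86% and 39.4% in magn[12c]/magn[12c];pSC2. The shares before and after centring apply to each list below. Beside Taf5 and Taf6 the largest changes in aly were those of Tbp, the TATA-binding protein (3.88, and 1.74 in sa), and Taf9, the histone-fold partner of TAF6 in general TFIID (3.46, and 3.03 in sa). All 9 tMAC genes and partners rose in aly (median 2.79), and 6 rose in sa and in each magn combination. The list includes aly itself, which was called higher in aly testes on the values as deposited (1.12, adjusted p = 0.00353, limma). That rise is smaller than the shift of -1.38 that the ribosomal protein centring makes in aly, so it is lost there. Unlike that of sa, the level of the aly transcript therefore gave no check of its label. List medians stayed above 0 after the ribosomal protein centring (1.41 in aly, and 0.21 to 0.33 in the others), with fewer genes called higher. The calls were then 7 higher in aly, 1 higher and 1 lower in sa, 1 lower in magn[12c]/magn[23b], and 1 higher and 1 lower in magn[12c]/magn[12c];pSC2. The zinc finger gene topi was the tMAC gene called lower in sa (-1.36), against a rise of 3.14 in aly, and tomb rose in all 4 mutants, most in aly (4.13). The testis bromodomain genes tbrd-1, tbrd-2 and tbrd-3, whose products act with the testis TAFs in spermatocytes, rose in aly by 2.80, 3.37 and 3.19. In sa, tbrd-3 rose by 1.53 while tbrd-1 and tbrd-2 had changes of 0.36 and -0.82 that were not called, and none of the 3 was called in magn. After the centring the 3 stayed called in aly (median 1.81) and 2 of them were called lower in sa (median -1.07). Of 6 tested Polycomb group genes 6 rose in aly, 5 in sa, 3 in magn[12c]/magn[23b] and 5 in magn[12c]/magn[12c];pSC2, led in aly by esc (5.13) and Sce (4.53), and the medians stayed above 0 after the centring (0.37 to 1.12), with 3 called higher in aly, 2 higher and 1 lower in sa, 1 higher and 1 lower in magn[12c]/magn[23b] and 1 lower in magn[12c]/magn[12c];pSC2.

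**Figure D5:**
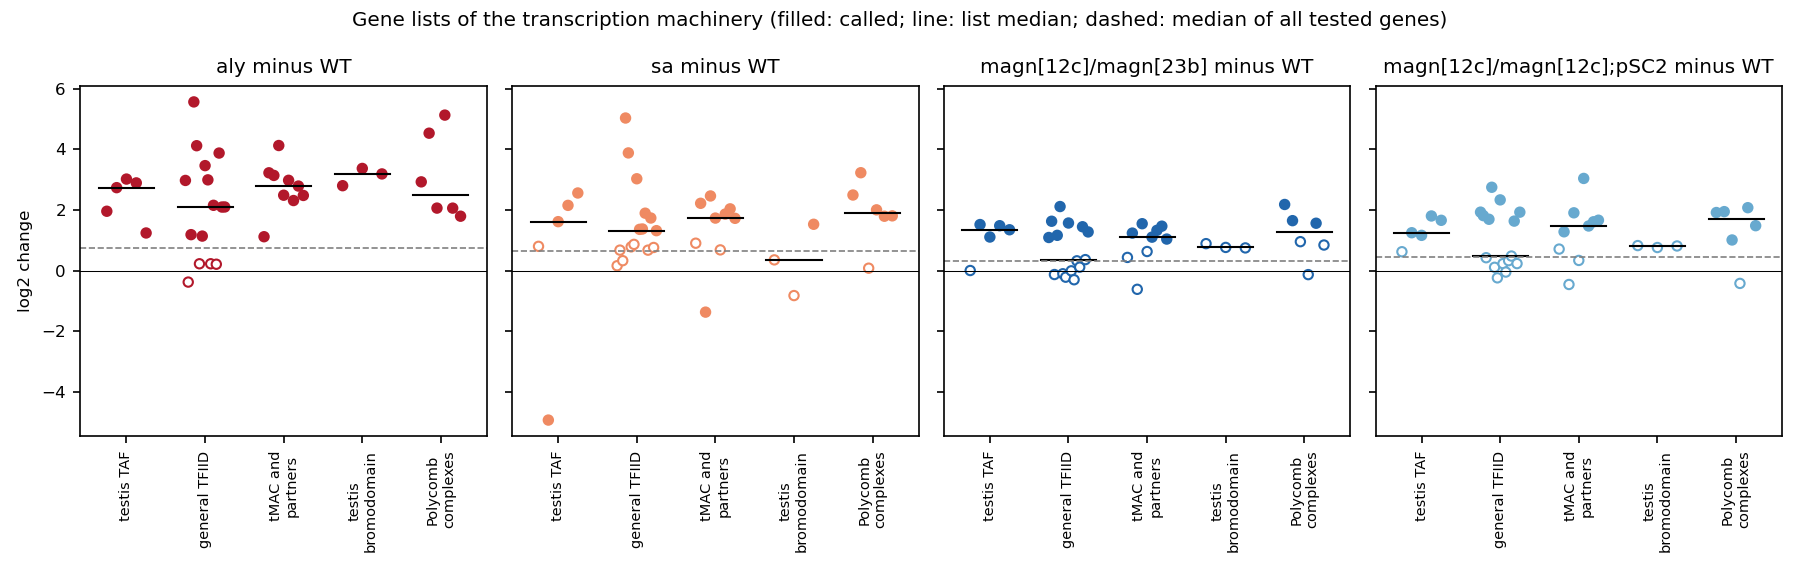
Log2 change against WT (vertical axis) of each tested gene of 5 lists in the 4 mutant genotypes, filled where the gene was called, with a line at the list median and a dashed line at the median of all tested genes. The testis TAF median lies above the dashed line in each genotype, as do the medians of the tMAC and Polycomb lists. The general TFIID median is also above it in aly (2.10) and sa (1.32), and only slightly above it in magn[12c]/magn[23b] (0.37) and magn[12c]/magn[12c];pSC2 (0.49).

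The spermatid genes that depend on this machinery did not move with the testis TAF transcripts in a single way. Of 14 spermatid genes tested, 10 fell in aly and 11 in sa, with medians of -3.29 in aly and -1.65 in sa, where 24.8% of all tested genes were called lower in aly and 21.6% in sa. On the values as deposited, mia, nht and Taf12L were higher than in WT in the same testes. ProtB, a protamine-like gene of sperm chromatin, changed by -8.25 in aly and -5.15 in sa, and ProtA, a close copy whose probes may share transcripts with it, by -4.70 in aly and -3.69 in sa. In magn[12c]/magn[23b] none of the 14 was called lower and dj was called higher (1.17), and in magn[12c]/magn[12c];pSC2 ProtB was called lower (-1.01), against 12.4% of all tested genes called lower in magn[12c]/magn[23b] and 16.8% in magn[12c]/magn[12c];pSC2. Centred on ribosomal protein genes, 14 of the 14 were called lower in aly (42.6% of all tested genes) and in sa (44.2%), 7 in magn[12c]/magn[23b] (32.9%) and 13 in magn[12c]/magn[12c];pSC2 (39.4%). Genes of meiotic entry separated aly from sa, since the cyclin gene CycB changed by -3.27 in aly and 2.09 in sa, the RNA-binding protein gene bol by -4.52 in aly and -1.48 in sa, and the Cdc25 gene twe by -1.82 in aly and -0.004 in sa. All 3 were called lower in aly than in sa, where 21.2% of all tested genes were. In magn only CycB in magn[12c]/magn[12c];pSC2 was called, as lower (-1.11). Centred on ribosomal protein genes, 3 were called lower in aly, 2 in sa (median -1.43), 1 in magn[12c]/magn[23b] and 3 in magn[12c]/magn[12c];pSC2. The shares of all tested genes called lower are those given above for this centring. Spermatocyte markers went both ways: Rbp4, blanks and kmg rose in aly (3.49, 2.24 and 2.57) and sa (2.71, 2.05 and 1.68), with an 8-gene summed level, as log2, of 16.10 to 16.18 in aly and 15.82 to 16.09 in sa, against 15.58 to 15.77 in WT, while the Y-linked dynein genes kl-2 and kl-3 and the tubulin gene betaTub85D fell in both. The Y-linked kl-2, kl-3 and kl-5 were at or below 4 in every array of aly, sa and magn[12c]/magn[12c];pSC2. Of 5 tested markers of spermatogonia 4 rose in aly and sa and 2 in each magn combination. Of all tested genes, 45.6% were called higher in aly, 40.9% in sa, 25.5% in magn[12c]/magn[23b] and 32.2% in magn[12c]/magn[12c];pSC2. With ribosomal protein genes set level, 2 were called higher in aly, and 2 higher and 1 lower in sa. In each magn combination 1 was then higher and 1 lower. The summed log2 level of the spermatogonia markers was 12.39 to 12.48 in aly, 11.70 to 11.88 in sa, 11.19 to 11.42 in magn[12c]/magn[23b], 11.20 to 11.42 in magn[12c]/magn[12c];pSC2 and 10.78 to 11.09 in WT. The part of the mix of cells in the testis TAF changes was not tested.

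The genes whose 4 changes against WT were closest to those of a testis TAF were found by the root-mean-square difference of the changes, among the tested genes with a name other than a CG or CR number. The 4 changes share the WT arrays, so the likeness is a description. For can they were pzg, Polr3F, a subunit of RNA polymerase III, and Tbc1d8-9 (0.09 to 0.14). For mia they were Strump, Pex19, a peroxisome biogenesis gene, and RagC-D, a GTPase of the TOR pathway (0.13 to 0.15), and for nht the checkpoint kinase gene Mps1, the Hippo kinase gene hpo and BCAS2 (0.11 to 0.12). For Taf12L they were Mrtf, MED10, a Mediator subunit, and ATPsynC (0.15 to 0.19). Over the 3 changes other than that in its own mutant, sa was closest to bisc, Ciz1 and wek (0.10 to 0.17). No testis TAF was among the 3 nearest of another, but with 5053 named genes this says little about their likeness. The nearest pairs were sa and mia (0.29) and sa and nht (0.33), both over 3 changes, and mia and nht (0.46) over 4. Among the named genes mia ranked 50 and nht 92 in nearness to sa, and nht ranked 281 in nearness to mia.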

How the data were processed

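RNA was labelled with a 3′ IVT kit, per the labels' protocols, and the deposited log2 values were made by the authors with GCRMA, which corrects background, normalizes arrays and summarises probe sets, per the submitters' processing notes; its version is not given in the sources used here. Of 18952 probe sets, 13647 pair with 1 gene symbol in the platform's annotation, and 13544 of these could be matched to RefSeq genes (assembly Release 6 plus ISO1 MT). The files name no genome build, so no coordinates are given.

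The filter kept 8719 genes whose brightest probe set exceeded a log2 value of 4 on 3 or more of the 13 arrays. A linear model with 5 genotype groups was fitted with limma 3.58.1 in R 4.3.3 (eBayes with intensity trend), with Benjamini-Hochberg adjustment within each comparison. Levels were compared between arrays, never between probe sets. Exact two-sided permutation tests and figures were made with numpy 2.4.6, matplotlib 3.10.9 and pandas 2.3.3 under Python 3.11.15. The steps were tested on simulated data.

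The number of arrays limits the precision, and no depth or scan batch is known. The members, lists and tests were chosen with earlier results of these data known. Named genes are the members, their counterparts, up to 4 genes per list and comparison with large changes, and the 3 nearest genes of each member; further list genes were added after their values were seen. Replicate numbers did not pair the arrays: the deviations of arrays with a shared number correlated at -0.27 to 0.24 over 23 pairs, above 0.1 in 7 and under 0 in 11. Alternatives covered filters, scalings, the variance model, the fold minimum, the probe set, the arrays fitted, the grouping of magn, a replicate block and each array left out.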

Additional observations from a re-analysis of the deposited data

How the results depend on the processing

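Scaling decided more than any other choice tried. Centring on ribosomal protein genes left 3 testis TAF genes called higher by limma in aly (20.6% of all tested genes), 1 in sa (10.2%), 0 in magn[12c]/magn[23b] (7.66%) and 0 in magn[12c]/magn[12c];pSC2 (7.86%), where 3 in the first magn combination and 2 in the second were higher with an adjusted p under 0.05 and less than 2-fold. Centred on the median of all tested genes, 2 were called higher in each magn combination. Under the ribosomal protein centring the changes in aly turned to -0.13 for Taf12L, -0.23 for Taf8 and -0.19 for Taf4, and in sa to -1.09 for Taf4. Averaging both Taf12L probe sets, 1 of which was at background, left 0 genes called lower in aly than in sa and turned Taf12L minus Taf12 in sa to -0.66. Without sa replicate 3, can was no longer called between aly and sa; no other call of a testis TAF gene against WT or between aly and sa changed when an array was left out, and where a magn combination was left with 1 array, that array was assumed to vary like the other groups. With the replicate number as a block the counts called higher were 5 in aly, 3 in sa and 4 in each magn combination, as without it. Treating the 4 magn arrays as 1 group gave 4 genes called higher, with can at 0.32. Dropping the fold minimum added calls of can in sa and magn[12c]/magn[12c];pSC2. No depth is known for arrays, and Taf5, with 2 WT arrays below a log2 value of 4, is the change most limited by background.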

Other observations

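Among the general TFIID genes that are not counterparts of a testis TAF, several separated aly from sa. Taf1, the TFIID scaffold subunit, changed by 2.98 in aly and 0.17 in sa, and was called higher in aly than in sa (2.81). Taf10 was also higher in aly than in sa (1.63), and its paralog Taf10b was lower (-1.14), with changes against WT of 0.23 in aly and 1.38 in sa. Tbp (2.14) and the TBP-related gene Trf (1.33) were higher in aly than in sa as well. On the values as deposited, Taf3 was called higher in magn[12c]/magn[23b] (1.63) and magn[12c]/magn[12c];pSC2 (1.82) but in neither aly (-0.37) nor sa (0.68). Centring on ribosomal protein genes shifts changes by -0.90 in magn[12c]/magn[23b] and -1.15 in magn[12c]/magn[12c];pSC2, which puts both Taf3 rises under 2-fold. The shift is -1.38 in aly and -1.42 in sa, which puts Taf3 further below WT in aly and below it in sa. Among the tMAC genes, vis, whose close copy achi lies beside it, was the 1 called between the magn combinations, at -1.93 for magn[12c]/magn[23b] minus magn[12c]/magn[12c];pSC2.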
